A study of Mus musculus with 11 samples.

Results

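The liver 36 h after an overdose of paracetamol (acetaminophen, APAP) was compared with uninjured liver, using 5 of the 11 mouse sections profiled with Visium spatial transcriptomics. The comparison took the 2 sections labelled 36 h, A and B, against the 3 sections labelled 0 h and uninjured, numbered 2, 3 and 4. A section entered as 1 sample, after its UMIs (counted RNA molecules) had been summed over the spots on tissue with 800 or more genes detected and no more than 20% of UMIs from mitochondrial transcripts. The remaining 6 sections, 2 from 24 h and 4 from 48 h, entered the same fit, where they helped to set the scaling, the genes tested and the spread. They also entered the principal components and the comparison of time points given at the end. Per the study's methods the animals were adult C57BL/6JCrl mice, male unless stated, which were fasted and then injected with APAP into the peritoneal cavity, and the livers were snap-frozen and cryosectioned. Whether the uninjured mice were fasted, and the hour of the day at which each liver was taken, are not given in the sources used here. The labels do not name the mouse or slide of a section, and the study's methods name 1 animal behind the sections of a given hour. Every p therefore covers the spread between sections, and effects of time, mouse, slide and sequencing run cannot be told apart.

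As background, APAP is turned into a reactive metabolite by cytochrome P450 enzymes that are concentrated in hepatocytes around the central vein, and these pericentral hepatocytes die first. Hepatocytes near the portal vein carry out urea synthesis and gluconeogenesis and largely survive. Dead tissue is then infiltrated by neutrophils and monocytes, stellate cells lay down a provisional matrix, surviving hepatocytes secrete acute phase proteins, and the lesion is closed and repopulated. A Visium spot covers several cells, so a section sum mixes hepatocytes with all other cells, and fewer cells of a type cannot be told apart from less RNA per cell.

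The passing spots numbered 1937, 2690 and 2329 in the uninjured sections and 1970 and 2035 at 36 h. Section sums were 57398798, 67045372 and 45196102 UMIs in the uninjured sections against 31292663 and 33338901 at 36 h, and every 36 h section had fewer UMIs per spot than every uninjured section (median 15168.5 and 16294 against 19764 to 29950). The spots outside the tissue mask held 17.5% and 17.8% of all UMIs at 36 h, within the 15.4% to 19.97% of the uninjured sections. Albumin, the defining hepatocyte product, was among the most abundant transcripts of every section. The 36 h sections differed from each other. Section B stood far from the uninjured sections on the first principal component (25.9 against -55.7 to -51.7), which held 49.8% of the variance of the 11 sections, and section A stood between them (-1.92). The chi-square per gene between A and B was 226, the largest of any pair of sections of the same time point. For that reason each value is given for both 36 h sections, in the order A, then B, after the uninjured sections 2, 3 and 4. Levels are in CPM, the UMIs of a gene per 1000000 of the section total scaled by TMM, a trimmed mean of the ratios between sections.

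Of 14821 genes tested with edgeR's quasi-likelihood test, 4329 (29.2%) differed between 36 h and uninjured liver at an adjusted p under 0.05. The called genes comprised 2488 (16.8%) that rose and 1841 (12.4%) that fell. Both 36 h sections lay outside the range of the 3 uninjured sections, on the same side, for 4306 of them (29.1%), of which 2465 (16.6%) rose and 1841 (12.4%) fell. Such separation was common in itself, since 55.94% of all genes tested showed it. A change of at least 2-fold was called upward for 1513 genes and downward for 466. The number of calls leaned on single sections, with 2643 calls without 36 h section B, 2709 without uninjured section 2 and 2770 without uninjured section 3, and it was 3128 when the 24 h and 48 h sections were left out of the fit. The choice of scaling moved it further. The 50 most abundant genes took 40.9% to 42.0% of the UMIs in the uninjured sections against 34.3% and 37.6% at 36 h, and the median gene changed by 0.05 (log2) after TMM scaling but by 0.49 after scaling to the plain total. Under the plain total 7506 genes were called and 94.1% of them rose, against 57.5% with TMM. Changes below are relative to the TMM scale.

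Section B lay farther from uninjured liver for most of the genes on which both sections moved. Of the 2465 genes that rose in both, 1661 were higher in B than in A, and of the 1841 that fell, 1166 were lower in B. Among the 11055 genes with a mean of at least 2 CPM at 36 h, 494 were at least 2-fold higher in B and 333 at least 2-fold higher in A.

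**Figure D1:**
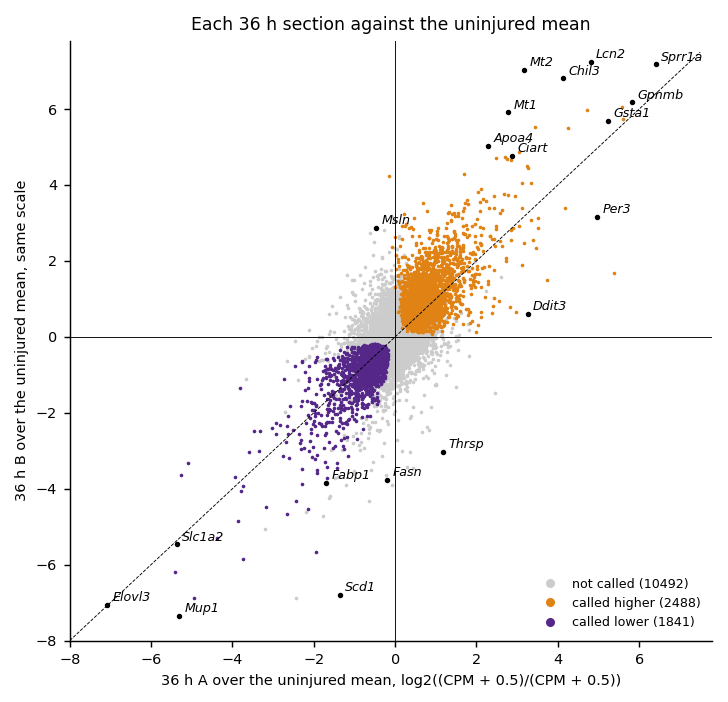
Log2 ratio of 36 h section A (x axis) and of 36 h section B (y axis) to the mean of the 3 uninjured sections for each of the genes tested, on CPM plus 0.5. Genes called at an adjusted p under 0.05 are coloured by direction and some genes are named in black. The cloud follows the diagonal, with 3 called genes on opposite sides in A and B.

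The 12 largest rises were sought among called genes with at least 10 CPM at 36 h. Both 36 h sections had to lie above the uninjured range. The genes were Sprr1a, Gpnmb, Chil3, Mmp12, Gm3776, Lcn2, Timp1, Mt2, Ciart, Ly6d, Gsta1 and Adam8. They span an epithelial envelope protein (Sprr1a), macrophage products (Gpnmb, Chil3, and the elastase Mmp12), secreted defence and matrix regulators (Lcn2, an iron-scavenging lipocalin; Timp1, an inhibitor of metalloproteinases; Adam8, a membrane protease), glutathione transferases (Gsta1 and the related gene Gm3776), a metallothionein and a repressor of the circadian clock (Ciart). Timp1 was measured at 0.264, 0.147 and 0.424 CPM in the uninjured sections and 14.4 and 34.7 CPM at 36 h (log2 ratio 6.53 ± 0.57, adjusted p = 0.000208). The first value is the log2 ratio of 36 h to uninjured liver from the fit, with its SE after the ± sign, here and throughout. Adam8 went from 0.352, 0.423 and 0.226 CPM in the uninjured sections to 6.34 and 24.1 CPM at 36 h (log2 ratio 5.46 ± 0.75, adjusted p = 0.00138). For Ly6d, a surface protein of the LY6 family, the levels were 1.01, 2.15 and 1.19 CPM in the uninjured sections and 50.9 and 122 CPM at 36 h (log2 ratio 5.87 ± 0.45, adjusted p = 8.99e-05). All 3 were higher in section B than in A.

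Gsta1, which conjugates glutathione to electrophiles, was at 6.14, 4.53 and 2.37 CPM in the uninjured sections and 181 and 249 CPM at 36 h (log2 ratio 5.62 ± 0.62, adjusted p = 0.000531). Its close relative Gm3776 moved with it, from 0.792, 0.442 and 0.282 CPM to 47.2 and 66.7 CPM (log2 ratio 6.78 ± 0.77, adjusted p = 0.000595). The sequences of these transferases are near-identical, so reads could have been divided between them and the separate values are uncertain. Of the 12 rises, the call was lost only for Mt2 among the 17 alternative settings, without 36 h section B (adjusted p = 0.121).

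The 12 largest falls with at least 10 CPM in uninjured liver were Elovl3, Slc1a2, 6 major urinary protein genes (Mup1, Mup17, Mup11, Mup16, Mup9 and Mup18), Cyp4a12b, Cyp2c69, Cyp2c40 and Cyp2c37. Elovl3 elongates long-chain fatty acids, Slc1a2 takes up glutamate into pericentral hepatocytes, and the P450 genes metabolise drugs, steroids or fatty acids. Elovl3 was at 351, 504 and 608 CPM in the uninjured sections and 3.1 and 3.17 CPM at 36 h (log2 ratio -7.28 ± 1.14, adjusted p = 0.00223), so the 2 injured sections were alike. Cyp4a12b, a fatty acid hydroxylase of the male liver, fell from 48.2, 54.7 and 51.7 CPM to 3.36 and 0.4 CPM (log2 ratio -4.78 ± 0.77, adjusted p = 0.0025). For Cyp2c37 the levels were 142, 147 and 84.6 CPM in the uninjured sections and 7.71 and 9.22 CPM at 36 h (log2 ratio -3.88 ± 0.67, adjusted p = 0.00349). In all 12 both 36 h sections lay below the lowest uninjured section, as the choice of genes required. Mup and Cyp2c genes are families of near-identical copies whose reads may be shared, and values for single members are uncertain. The call was lost without 36 h section B for Mup1 (adjusted p = 0.0582) and Mup18 (adjusted p = 0.134), and for Mup18 also without section A (adjusted p = 0.0865) and without the filter on low counts (adjusted p = 0.0521).

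**Figure D2:**
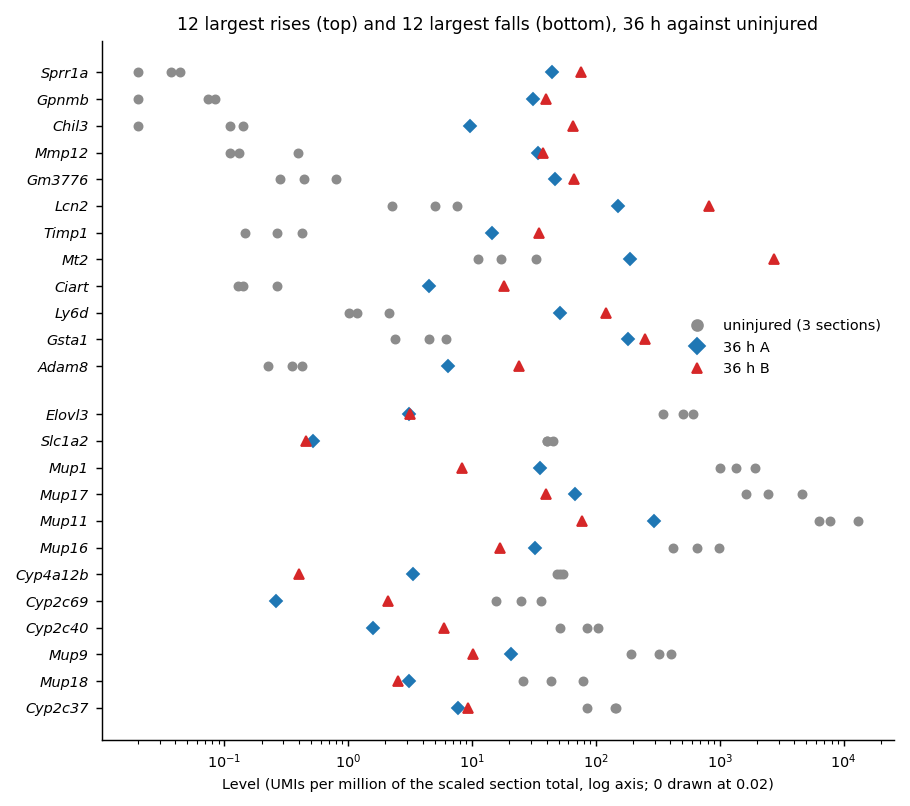
CPM on a log10 axis for the 12 genes with the largest rise (top) and the 12 with the largest fall (bottom), 1 point per section (uninjured, grey circles; 36 h A, blue diamonds; 36 h B, red triangles), with a level of 0 drawn at 0.02. The 36 h points lie on 1 side of the uninjured points in all 24 genes, as the choice of these genes required.

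Genes were next described in 48 lists by function, each by its number of called members and by the median fitted log2 ratio of the members tested. Over all genes 16.8% were called higher and 12.4% lower, with a median of 0.05. Lists and members were chosen with earlier results of these data known, so a count above those shares is a description and no evidence of enrichment. Leaving out each of the 5 sections in turn moved several counts, so wherever a count of 3 or more moved by over 1.5 times its values without each such section are given beside it, and otherwise its range. For the heat shock chaperones without section B the list median is given instead. Counts of 1 or 2 members often came or went with a single section. The medians of single sections are on log2 of CPM plus 0.5, which draws low genes towards 0.

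Genes that mark the pericentral zone fell. In the module of 23 central genes that the study drew by spatial trajectories, 17 fell and none rose (median -1.30; -1.14 in section A and -1.61 in section B), with a count of 8 without section B. Uninjured and injured mouse sections may have entered that choice, so the module is not independent evidence of direction. Among 16 targets of the Wnt signal from the central vein, 14 fell and none rose (median -1.75), with a count of 9 without section B. Oat, which degrades ornithine in the cells next to the central vein, was at 307, 274 and 233 CPM in the uninjured sections and 26.2 and 33.4 CPM at 36 h (log2 ratio -3.19 ± 0.18, adjusted p = 1.02e-05). Rhbg, an ammonium transporter of the same cells, dropped from 10.1, 8.08 and 9.74 CPM to 1.01 and 0.942 CPM (log2 ratio -3.24 ± 0.34, adjusted p = 0.00034). The uninjured and injured ranges did not overlap for either gene, as for nearly all called genes. Rnf43 and Znrf3, feedback inhibitors of Wnt receptors, were not called (log2 ratios -0.01 ± 0.27 and -0.01 ± 0.24). Wnt2, a ligand made by endothelium, was at 8.1, 6.55 and 7.09 CPM in the uninjured sections and 1.91 and 3.8 CPM at 36 h (log2 ratio -1.34 ± 0.32, adjusted p = 0.0121), and its call was lost without section A (adjusted p = 0.0562). Rspo3, an endothelial amplifier of Wnt signals, read 2.17 CPM in section A but 5.22 CPM in section B, against 6.67, 5.19 and 5.96 CPM in uninjured liver (adjusted p = 0.116).

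The portal module of 12 genes, drawn by the study in the same way, moved less, with 1 gene higher and 6 lower (median -0.58; 2 without section B for the falls, with plain totals 3 rose and 4 fell). Pigr, which carries immunoglobulin A into bile, was at 769.8, 766 and 901 CPM in the uninjured sections and 389.9 and 497 CPM at 36 h (log2 ratio -0.87 ± 0.15, adjusted p = 0.00239). The single riser, Hpx, encodes the haem-binding acute phase protein hemopexin and stood at 2959, 3289.7 and 4126 CPM in the uninjured sections and 4951 and 6869 CPM at 36 h (log2 ratio 0.77 ± 0.20, adjusted p = 0.0171), a call that was lost without section B (adjusted p = 0.139) and without uninjured section 2 (adjusted p = 0.0674) or 3 (adjusted p = 0.06). In the urea cycle, 1 of 9 genes rose and 1 fell. Asl, argininosuccinate lyase, increased from 395, 359 and 339 CPM to 613 and 1007 CPM (log2 ratio 1.15 ± 0.23, adjusted p = 0.00493), while Otc, ornithine transcarbamylase, decreased from 489.5, 459.5 and 475 CPM to 271 and 199 CPM (log2 ratio -1.01 ± 0.18, adjusted p = 0.00272). Cps1, the entry enzyme of the cycle, was at 1891, 1975 and 1850.1 CPM in the uninjured sections and 1444 and 1758 CPM at 36 h and was not called (adjusted p = 0.296). The median of the urea cycle list was -0.25 with TMM and 0.18 with plain totals, so no direction holds for it as a group. Of 24 genes for the breakdown of other amino acids, 10 fell and none rose (count 5 without uninjured sections 2 or 3 and 6 without section A, where 3 rose without section A), but with plain totals 5 rose and 3 fell. Kynu, which cleaves kynurenine in tryptophan breakdown, was at 113, 118 and 110.4 CPM in the uninjured sections and 50.4 and 55.1 CPM at 36 h (log2 ratio -1.11 ± 0.19, adjusted p = 0.00234). The list median was -0.31 with TMM and 0.13 with plain totals.

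Drug metabolism was lower. Of 32 cytochromes P450 and their electron donor, 17 fell and 3 rose (median -1.09), with a count of 11 without uninjured section 2. Cyp2c29 stood at 735, 456 and 336 CPM in the uninjured sections and 75.3 and 57.6 CPM at 36 h (log2 ratio -2.94 ± 0.47, adjusted p = 0.00218). The risers were Cyp2a4, Cyp3a13 and Por, the reductase that feeds electrons to all of these enzymes. Por rose from 92.3, 95 and 68.8 CPM to 212 and 519 CPM (log2 ratio 2.10 ± 0.36, adjusted p = 0.00294), with section B more than 2-fold above A. Cyp2a4, a steroid hydroxylase, rose from 0.022, 0.497 and 0.141 CPM to 7.1 and 3.71 CPM (log2 ratio 4.51 ± 0.98, adjusted p = 0.00861), and shares most of its sequence with Cyp2a5. Cyp2d26 and Cyp2a12, at 938, 884 and 928 and 424, 462 and 512 CPM in the uninjured sections, were at 832 and 895 and 414 and 454 CPM at 36 h and were not called (adjusted p = 0.632 and 0.62). Cyp3a13 lost its call without section B (adjusted p = 0.175) or any of the uninjured sections (adjusted p = 0.0651, 0.0767 and 0.0687).

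Bile acid genes fell on the synthetic and transport sides with TMM, but with plain totals the list median was -0.03, with 4 genes higher and 8 lower. Among 24 genes, 11 fell and 1 rose (median -0.47), with a count of 7 without section B. Cyp8b1, which makes cholic acid, was at 436, 461 and 345 CPM in the uninjured sections and 82.8 and 117 CPM at 36 h (log2 ratio -2.05 ± 0.36, adjusted p = 0.00333). Abcb11, the bile salt export pump, went from 448, 551 and 532 CPM to 182 and 68.8 CPM (log2 ratio -2.02 ± 0.37, adjusted p = 0.00384). Slco1b2, an uptake carrier, went from 700.1, 631 and 578 CPM to 288 and 192 CPM (log2 ratio -1.41 ± 0.19, adjusted p = 0.000814). The riser was Abcc4, a basolateral efflux pump, at 2.44, 3.2 and 2.29 CPM in the uninjured sections and 11.4 and 7.62 CPM at 36 h (log2 ratio 1.84 ± 0.38, adjusted p = 0.00691). The canalicular pump Abcc2 was at 126, 112 and 98.5 CPM in the uninjured sections and 149 and 124 CPM at 36 h and was not called (adjusted p = 0.141).

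The major urinary proteins, pheromone carriers secreted by the male liver under growth hormone, had the lowest median of all lists (-3.83; -2.18 in section A and -3.20 in section B), with 17 of 21 genes called lower and 11 without section B. Their summed level was 64224, 53653 and 82492 CPM in the uninjured sections and 14714 and 6355 CPM at 36 h, so uninjured section 4 was highest and section B lowest. Mup21 went apart from the family at 36 h, at 423 CPM in section A and 28.2 CPM in section B against 226, 314 and 403 CPM in uninjured liver, and was not called (adjusted p = 0.75). Other genes of the growth hormone axis fell as well, 10 of 22 with none higher (median -1.05; count 6 without uninjured section 3 and 5 without section B). Cish, a feedback inhibitor that STAT5 induces, was at 56, 39.2 and 31.5 CPM in the uninjured sections and 3.07 and 4.77 CPM at 36 h (log2 ratio -3.43 ± 0.71, adjusted p = 0.0073), and its call was lost without section A (adjusted p = 0.0571) or B (adjusted p = 0.0562). Cyp4a12a went from 238, 211 and 248 CPM to 36.2 and 8.65 CPM (log2 ratio -3.37 ± 0.62, adjusted p = 0.0045). Igfbp4, a binding protein of insulin-like growth factors, was at 843, 879 and 887 CPM in the uninjured sections and 769 and 886 CPM at 36 h (adjusted p = 0.639).

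The transcription factors that maintain hepatocyte identity moved little. Of 25, 3 rose and 3 fell (1 without uninjured sections 2 or 3 or section B for the falls). The master regulator Hnf4a was at 179, 179 and 167 CPM in the uninjured sections and 168 and 216 CPM at 36 h (log2 ratio 0.13 ± 0.16, adjusted p = 0.552), with the sections overlapping. Gata6 was at 4.34, 4.4 and 3.78 CPM in the uninjured sections and 6.32 and 8.62 CPM at 36 h (log2 ratio 0.84 ± 0.16, adjusted p = 0.00389). Its relative Gata4 was at 14.9, 14.4 and 13.1 CPM in the uninjured sections and 9.27 and 8.82 CPM at 36 h (log2 ratio -0.64 ± 0.18, adjusted p = 0.0234). Esrra, a nuclear receptor for energy metabolism, rose from 23.2, 21.8 and 20.02 CPM to 32.2 and 29.9 CPM (log2 ratio 0.52 ± 0.11, adjusted p = 0.00665). The Gata4 call was lost without section B (adjusted p = 0.102) and without uninjured section 2 (adjusted p = 0.0644) or 3 (adjusted p = 0.0575). With plain totals the Gata4 adjusted p was 0.376, 10 factors rose and 0 fell, and the median was 0.31 in place of -0.13.

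Secreted plasma proteins were split. Of 36 coagulation and complement factors, 14 fell and 2 rose (median -0.36; count 8 without section B, where no factor rose). The balance reversed with the scaling, since with plain totals 12 rose and 2 fell, with a median of 0.07. Mbl1, a lectin of the complement system, was at 264, 251 and 266 CPM in the uninjured sections and 105 and 96.3 CPM at 36 h (log2 ratio -1.37 ± 0.18, adjusted p = 0.0008). C8g, a subunit of the complement pore, fell from 974, 1015 and 1015 CPM to 575 and 336 CPM (log2 ratio -1.14 ± 0.21, adjusted p = 0.00349). Among 17 apolipoproteins and lipid transfer genes, 8 fell and 1 rose (with plain totals 3 rose and 3 fell). Apoa2, a high-density lipoprotein component and among the most abundant transcripts of liver, was at 36318, 32725 and 30438 CPM in the uninjured sections and 17348 and 12844 CPM at 36 h (log2 ratio -1.14 ± 0.16, adjusted p = 0.00113). Apoa4, a lipoprotein component that liver induces during fasting and steatosis, was the riser, from 129, 131 and 140.2 CPM to 651 CPM in section A and 4374 CPM in section B (log2 ratio 4.23 ± 0.86, adjusted p = 0.00673). The Apoa4 call was lost without section B (adjusted p = 0.0904).

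The acute phase proteins, which hepatocytes secrete in answer to inflammatory cytokines, rose, but not all together. Of 32, 16 rose and 4 fell (median 0.99; 0.53 in section A and 1.04 in section B), with a count of 10 without uninjured sections 2 or 3 and 5 without section B. Their sum was 31578, 32014 and 39414 CPM in the uninjured sections and 46279 and 66648 CPM at 36 h, highest in section B. The list also holds the metallothionein Mt1, described below, which made up a large part of the gap between sections A and B. Lcn2 was at 5.02, 2.25 and 7.51 CPM in the uninjured sections and 151 and 825 CPM at 36 h (log2 ratio 6.64 ± 0.95, adjusted p = 0.00155). Orm2, the acute phase glycoprotein orosomucoid, was at 14.6, 15.3 and 24.5 CPM in the uninjured sections and 134 and 108 CPM at 36 h (log2 ratio 2.74 ± 0.68, adjusted p = 0.0156). The serum amyloid gene Saa1 varied among the uninjured sections (152, 87.7 and 636 CPM), with 1385 and 672 CPM at 36 h, and was not called (adjusted p = 0.22). The 3 fibrinogen chains ran the other way: Fgg was at 3968, 4246 and 5008 CPM in the uninjured sections and 2506 and 2638 CPM at 36 h (log2 ratio -0.78 ± 0.16, adjusted p = 0.00585), Fga was also called lower (log2 ratio -0.55 ± 0.18, adjusted p = 0.0385), and Fgb was not called (log2 ratio -0.48 ± 0.17, adjusted p = 0.0578). Crp fell from 392, 389 and 383 CPM to 243 and 234 CPM (log2 ratio -0.70 ± 0.14, adjusted p = 0.00562). The count of falls was 2 without uninjured sections 3 or 4, and with plain totals no member of the list fell. The Orm2 call was lost without section A (adjusted p = 0.0606), without section B (adjusted p = 0.062) and without uninjured section 2 (adjusted p = 0.0536) or 3 (adjusted p = 0.0525), and that of Fga without any of uninjured sections 2, 3 and 4 (adjusted p = 0.0641, 0.0701 and 0.1) or without section A (adjusted p = 0.163) or 48 h section B (adjusted p = 0.0553).

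In the IL-6 pathway, which drives the acute phase through gp130 and STAT3, 4 of 17 genes rose and 3 fell (2 without uninjured sections 3 or 4 and 0 without section B for the rises, 1 without uninjured section 4 and 0 without section B for the falls). The receptor Il6ra was at 9.4, 9.28 and 7.65 CPM in the uninjured sections and 16.2 and 35.4 CPM at 36 h (log2 ratio 1.55 ± 0.38, adjusted p = 0.0149; adjusted p = 0.177 without section B). The shared chain Il6st and the factor Stat3 were not called (log2 ratios 0.05 ± 0.12 and 0.12 ± 0.16). Il6 itself was too sparse to test, with 4, 4 and 2 UMIs in the uninjured sections and 0 and 2 at 36 h.

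Metallothioneins, small cysteine-rich proteins that bind zinc and copper, rose most in section B. In their list with zinc transporters, 5 of 11 rose (count 3 without uninjured sections 3 or 4 and 1 without section B) and 4 fell. Mt2 was at 17.2, 11.2 and 33.1 CPM in the uninjured sections and 189 and 2739 CPM at 36 h (log2 ratio 6.16 ± 1.36, adjusted p = 0.00951). Mt1 was at 179.5, 129 and 311 CPM in the uninjured sections and 1426 and 12482 CPM at 36 h (log2 ratio 5.07 ± 1.14, adjusted p = 0.0103). Both 36 h sections were above all uninjured sections, as for nearly all called rises, with B 8-fold or more above A for each gene. Without section B neither was called (adjusted p = 0.121 for Mt2 and 0.131 for Mt1). The zinc importers Slc39a4 and Slc39a8 fell, Slc39a4 from 89.2, 74.3 and 84.1 CPM to 31.2 and 34.2 CPM (log2 ratio -1.33 ± 0.19, adjusted p = 0.00116) and Slc39a8 from 22, 26 and 24.7 CPM to 13.2 and 13.1 CPM (log2 ratio -0.88 ± 0.14, adjusted p = 0.00166), whereas the importer Slc39a1 rose from 41.2, 43.8 and 40.6 CPM to 59.97 and 73.5 CPM (log2 ratio 0.67 ± 0.13, adjusted p = 0.00487). The metal-responsive factor Mtf1, which drives metallothionein genes, was at 10.9, 11.1 and 9.35 CPM in the uninjured sections and 9.85 and 10.4 CPM at 36 h (adjusted p = 0.81). The region upstream of Mt2 is shown because metal response elements in it are textbook control sites of this gene. From 250 to 26 bases before the RefSeq start of Mt2 (GRCm38.p6, chr8:94172368-94172592, plus strand) lie 5 matches to TGCNCNC, marked in capitals. The pattern was read on both strands. It is looser than the usual core of that element, which takes only adenine or guanine as its 4th base. Among the 5 are matches with thymine there, which fit only the looser pattern. At least 1 match was present in 40% of 27025 promoters of the same length, and 5 or more in 0.152%. Of the 9 promoters found for the list 5 held at least 1 match, and that of Mt1 held 0 in this window. The count for Mt1 depends on the annotated start and the window used, and does not show that the gene lacks such elements. A match describes letters and is no evidence of binding.
Mt2: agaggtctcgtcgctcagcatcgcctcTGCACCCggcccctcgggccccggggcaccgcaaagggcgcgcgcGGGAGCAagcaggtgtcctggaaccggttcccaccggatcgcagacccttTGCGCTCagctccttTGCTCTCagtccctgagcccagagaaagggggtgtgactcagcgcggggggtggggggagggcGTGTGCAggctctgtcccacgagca

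Genes of iron handling included Hamp, the hormone hepcidin that blocks iron export, at 2406, 1304 and 1504 CPM in the uninjured sections and 4545 and 5039.7 CPM at 36 h (log2 ratio 1.46 ± 0.42, adjusted p = 0.0258). Id1, a target of the BMP pathway that controls hepcidin, rose from 9.51, 13.7 and 11.3 CPM to 47.9 and 61.8 CPM (log2 ratio 2.25 ± 0.17, adjusted p = 6.54e-05). The ferritin chains moved apart: Fth1 was at 4459.5, 4132 and 4076 CPM in the uninjured sections and 8813 and 6900.1 CPM at 36 h (log2 ratio 0.90 ± 0.19, adjusted p = 0.0066). Ftl1 was at 8049, 6982 and 7068 CPM in the uninjured sections and 4441 and 4562 CPM at 36 h (log2 ratio -0.71 ± 0.14, adjusted p = 0.00559). Of 20 genes in the list, 5 rose and 4 fell, with a count of 2 without section B. The Ftl1 call was lost with plain totals (adjusted p = 0.145), and with plain totals 8 rose and 0 fell. The Hamp call was lost without section B (adjusted p = 0.12), without section A (adjusted p = 0.0615) and without uninjured section 3 (adjusted p = 0.0857) or 4 (adjusted p = 0.0786).

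NRF2, a transcription factor activated by oxidative and electrophilic stress, controls genes for glutathione synthesis and detoxification, and these divided. Of 38, 10 rose and 5 fell (6 without uninjured section 2 and 5 without section B for the rises, 3 without uninjured sections 2 or 3 or section B and 8 without section A for the falls), with a median of -0.07 that became 0.37 with plain totals. Slc7a11, the cystine importer, was at 0, 0 and 0.0282 CPM in the uninjured sections and 2.52 and 2.43 CPM at 36 h. That is 1 UMI over the 3 uninjured sections and 172 over both 36 h sections, a ratio of 334 (95% interval from counting, 59.2 to 1.33e+04) (adjusted p = 0.00881). Cbr3, a carbonyl reductase, rose from 0.594, 0.571 and 0.537 CPM to 2.32 and 4.39 CPM (log2 ratio 2.56 ± 0.50, adjusted p = 0.00487). Falling members included the abundant microsomal transferase Mgst1, at 7937, 7395 and 7398 CPM in the uninjured sections and 3101 and 2196 CPM at 36 h (log2 ratio -1.52 ± 0.22, adjusted p = 0.00123). The NADPH-making malic enzyme Me1, was at 245, 277 and 167 CPM in the uninjured sections and 69.3 and 37.5 CPM at 36 h (log2 ratio -2.10 ± 0.36, adjusted p = 0.00274). Osgin1, an oxidative stress gene, differed between the 36 h sections (513 CPM in A and 56.8 CPM in B against 259, 368 and 347 CPM in uninjured liver) and was not called (adjusted p = 0.872).

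Among targets of the ATF4 and unfolded protein responses, 9 of 36 rose and 4 fell (4 without section A for the rises, 1 without uninjured section 2 or section B and 2 without uninjured section 3 for the falls). Risers included enzymes that make serine and asparagine. Psat1 was at 0.682, 0.883 and 0.706 CPM in the uninjured sections and 10.5 and 12.8 CPM at 36 h (log2 ratio 3.92 ± 0.20, adjusted p = 6.99e-06), Phgdh at 0.176, 0.129 and 0.254 CPM in the uninjured sections and 2.26 and 1.88 CPM at 36 h (log2 ratio 3.50 ± 0.34, adjusted p = 0.000236). Asns was at 0.814, 0.865 and 0.706 CPM in the uninjured sections and 6.46 and 16.4 CPM at 36 h (log2 ratio 3.83 ± 0.46, adjusted p = 0.000667). Both 36 h sections were above all uninjured sections for these enzymes, as for nearly all called rises. Ddit3, the stress factor CHOP, was at 114 CPM in section A but 17.9 CPM in section B, against 10.3, 14.5 and 9.74 CPM (log2 ratio 2.52 ± 0.60, adjusted p = 0.013), and it was not called without section A (adjusted p = 0.22). Members called lower included Atf4 itself (log2 ratio -0.75 to -0.12 over the 17 alternative settings), Atf5 (-1.41 to -0.63) and Shmt2 (-0.79 to -0.15). The Atf5 call held in all 17 settings, while those of Atf4 and Shmt2 were lost with plain totals and without uninjured section 2, among others. The chaperones of the endoplasmic reticulum Hspa5, Hsp90b1 and Calr were not called (adjusted p = 0.429, 0.635 and 0.281). Heat shock chaperones divided, with 7 of 25 lower and 2 higher (count 4 without uninjured section 3 for the falls), but with plain totals 4 rose and 1 fell. Their median was -0.49, and -0.37 without section B. Dnajb1, a co-chaperone of HSP70, was at 27.8, 41.2 and 29.9 CPM in the uninjured sections and 16.6 and 17.5 CPM at 36 h (log2 ratio -0.95 ± 0.18, adjusted p = 0.00416).

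p53 targets rose in 14 of 26 cases and fell in 1 (median 0.72; count 10 to 12 with 1 section left out). Phlda3, a p53-induced inhibitor of AKT, was at 1.65, 1.79 and 2.71 CPM in the uninjured sections and 6.17 and 14.7 CPM at 36 h (log2 ratio 2.36 ± 0.35, adjusted p = 0.00153). Zmat3, an RNA-binding target, was at 4.18, 3.9 and 3.5 CPM in the uninjured sections and 6.17 and 9.3 CPM at 36 h (log2 ratio 1.0 ± 0.17, adjusted p = 0.00236). The inhibitor of cell division Cdkn1a ranged from 7.33 to 36.9 CPM among uninjured sections, read 9.68 and 57.5 CPM at 36 h, and was not called (adjusted p = 0.461). Of 24 immediate early factors, which respond within minutes to stress and growth signals, 12 rose and none fell (count 7 without section B). Fosl1, an AP-1 subunit, had 1 UMI over the uninjured sections and 319 over both 36 h sections, a ratio of 620 (95% interval from counting, 110 to 2.46e+04) (adjusted p = 0.00116), and stood at 2.96 and 6.19 CPM at 36 h. Klf6, a zinc finger factor of injured liver, was at 5.5, 6.06 and 5.48 CPM in the uninjured sections and 11.6 and 27.7 CPM at 36 h (log2 ratio 1.79 ± 0.34, adjusted p = 0.00457).

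Circadian clock genes changed in both directions. In the list of 19 clock and PAR-bZIP factors, 7 rose and 4 fell (7 to 8 with 1 section left out for the rises, 3 to 6 with 1 section left out for the falls). The activators of the positive limb fell: Arntl was at 17.4, 15.4 and 16.7 CPM in the uninjured sections and 3.33 and 3.57 CPM at 36 h (log2 ratio -2.26 ± 0.16, adjusted p = 4.35e-05), Npas2 at 4.75, 4.42 and 3.7 CPM in the uninjured sections and 0.0869 and 0.4 CPM at 36 h (log2 ratio -4.12 ± 0.46, adjusted p = 0.000435). Clock was at 19.8, 18 and 17.2 CPM in the uninjured sections and 8.34 and 10.8 CPM at 36 h (log2 ratio -0.94 ± 0.14, adjusted p = 0.00162). Several genes under their control rose. Per3 was at 1.23, 0.828 and 0.508 CPM in the uninjured sections and 41.8 and 11.6 CPM at 36 h (log2 ratio 4.94 ± 0.52, adjusted p = 0.00043). Dbp, a PAR-bZIP factor, was at 7.81, 4.99 and 3.14 CPM in the uninjured sections and 63.4 and 28.8 CPM at 36 h (log2 ratio 3.11 ± 0.39, adjusted p = 0.0008), both higher in section A than in B. Tef went from 24.1, 20.6 and 12.5 CPM to 129 and 77.1 CPM (log2 ratio 2.43 ± 0.35, adjusted p = 0.00148). Ciart, a transcriptional repressor of the clock, was at 0.264, 0.129 and 0.141 CPM in the uninjured sections and 4.49 and 18 CPM at 36 h (log2 ratio 5.96 ± 0.81, adjusted p = 0.0011), this time with B above A. No groups overlapped for these 7 genes, which held for 4306 of the 4329 called genes. The part played by the hour of collection, which the sources used here do not give, was not tested.

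The region upstream of Ciart is shown because clock activators are known to bind the E-box CACGTG. From 250 to 26 bases before its RefSeq start (GRCm38.p6, chr3:95882254-95882478, minus strand) it holds 3 E-boxes, in capitals, a sequence that reads the same on both strands. At least 1 was present in 5.18% of 27025 promoters of the same length and 3 or more in 0.0481%. Of the 19 clock genes tested, 16 had a promoter in the table and 5 of those held at least 1. The match is a description of the sequence and shows no binding.
Ciart: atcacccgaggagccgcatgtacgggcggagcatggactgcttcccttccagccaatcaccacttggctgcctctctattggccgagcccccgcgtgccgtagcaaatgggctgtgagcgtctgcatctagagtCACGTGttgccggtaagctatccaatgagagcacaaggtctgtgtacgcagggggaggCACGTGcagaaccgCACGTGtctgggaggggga

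Genes of fatty acid oxidation and cholesterol synthesis fell with TMM. With plain totals the median of fatty acid oxidation was -0.16, with 2 genes higher and 5 lower. That of cholesterol synthesis was -0.40, with 1 higher and 7 lower. Of 32 genes for fatty acid oxidation and ketogenesis, 14 fell and 1 rose (median -0.59; count 8 without uninjured section 2 and 7 without uninjured section 3). Ehhadh, a peroxisomal oxidation enzyme, was at 155, 153 and 154 CPM in the uninjured sections and 56.2 and 27.3 CPM at 36 h (log2 ratio -1.88 ± 0.37, adjusted p = 0.00533). Acot1, a cytosolic thioesterase, was at 36, 39.3 and 20.02 CPM in the uninjured sections and 4.87 and 8.65 CPM at 36 h (log2 ratio -2.24 ± 0.38, adjusted p = 0.00285). The mitochondrial thioesterase Acot2 was the exception, from 3.35, 4.69 and 2.26 CPM to 8.46 and 9.1 CPM (log2 ratio 1.34 ± 0.24, adjusted p = 0.00286). Cholesterol synthesis fell in 14 of 25 genes with none higher (median -0.84; count 9 without uninjured sections 2 or 3). Hmgcs1, an early enzyme of the pathway, was at 419, 339 and 459 CPM in the uninjured sections and 128 and 146 CPM at 36 h (log2 ratio -1.56 ± 0.28, adjusted p = 0.00347). Insig2, a sterol sensor, was at 289, 381 and 357 CPM in the uninjured sections and 102 and 118 CPM at 36 h (log2 ratio -1.64 ± 0.15, adjusted p = 0.000233). Sections A and B were alike for both.

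The 36 h sections disagreed on lipogenesis. The list median was -0.24 in section A and -1.45 in section B, and 4 of 22 genes fell and 3 rose in the joint test, with 14 without section A for the falls. Scd1, which desaturates stearate, was at 9929, 10306 and 7924 CPM in the uninjured sections, 3665 CPM in section A and 84.1 CPM in section B (adjusted p = 0.176). Fasn, fatty acid synthase, was at 1048, 805 and 774 CPM, 764 CPM and 64.1 CPM in the same order (adjusted p = 0.378), and Thrsp, a lipogenic regulator, at 955, 844 and 886 CPM, 2033 CPM and 109 CPM (adjusted p = 0.874). None of the 3 was called. Members on which the sections did agree were Elovl5, at 397, 528 and 370.3 CPM in the uninjured sections and 90.7 and 56.8 CPM at 36 h (log2 ratio -2.55 ± 0.34, adjusted p = 0.000914). Agpat2, which adds the second acyl chain to glycerolipids, was at 432, 436 and 458 CPM in the uninjured sections and 230.0 and 158 CPM at 36 h (log2 ratio -1.19 ± 0.16, adjusted p = 0.000862). Scd2, the desaturase of non-hepatic tissues, rose from 7.29, 7.09 and 7.82 CPM to 14.4 and 23.8 CPM (log2 ratio 1.37 ± 0.22, adjusted p = 0.00214).

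The nuclear genes of the respiratory chain fell by small amounts and together, 64 of 76 with none higher (median -0.61; -0.59 in section A and -0.64 in section B; count 52 to 60 with 1 section left out). Cox5a, a subunit of cytochrome oxidase, was at 764, 794 and 849.8 CPM in the uninjured sections and 461 and 380.0 CPM at 36 h (log2 ratio -0.93 ± 0.13, adjusted p = 0.00114). Ndufb5, of complex I, was at 331, 316 and 313 CPM in the uninjured sections and 174 and 168 CPM at 36 h (log2 ratio -0.90 ± 0.10, adjusted p = 0.000418). With plain totals the median was -0.17, 12 fell and 2 rose. Transcripts of the mitochondrial genome fell in 10 of 13 cases, and here section A was lower (median -2.11, against -0.64 in B). mt-Nd2, a complex I subunit, was at 5345, 5585 and 3705 CPM in the uninjured sections and 1120.3 and 2309 CPM at 36 h (log2 ratio -1.51 ± 0.30, adjusted p = 0.00505). The count was 2 without uninjured sections 2 or 3 and 3 without section A. Mitochondrial UMIs made up 1.80% of all UMIs in section A and 4.53% in section B, against 4.10% to 5.995% in uninjured liver.

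Gluconeogenic and glycolytic enzymes gave mixed changes. Of 16 genes for gluconeogenesis and fasting, 2 rose and 3 fell (1 without section B for the falls), and with plain totals 5 rose and 2 fell. G6pc, which releases glucose, was at 494, 450.4 and 444 CPM in the uninjured sections and 64.4 and 91.7 CPM at 36 h (log2 ratio -2.57 ± 0.82, adjusted p = 0.041), and lost its call without section A (adjusted p = 0.185), without section B (adjusted p = 0.164) and without any of uninjured sections 2, 3 and 4 (adjusted p = 0.0756, 0.0701 and 0.0674), 24 h sections A and B (adjusted p = 0.051 and 0.0518) and 48 h section B (adjusted p = 0.0559). Pck1, the rate-limiting enzyme of gluconeogenesis, was at 1186, 1476 and 1525 CPM in the uninjured sections and 701 and 1319 CPM at 36 h and was not called (adjusted p = 0.601). In glycolysis 8 of 23 rose and 2 fell (5 without uninjured sections 2 or 4 and 3 without uninjured section 3 or section B for the rises). Pkm, the pyruvate kinase of non-hepatocytes and growing cells, was at 19.5, 23.1 and 26.4 CPM in the uninjured sections and 87.2 and 177 CPM at 36 h (log2 ratio 2.52 ± 0.32, adjusted p = 0.0008), with B about 2-fold above A.

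**Figure D3:**
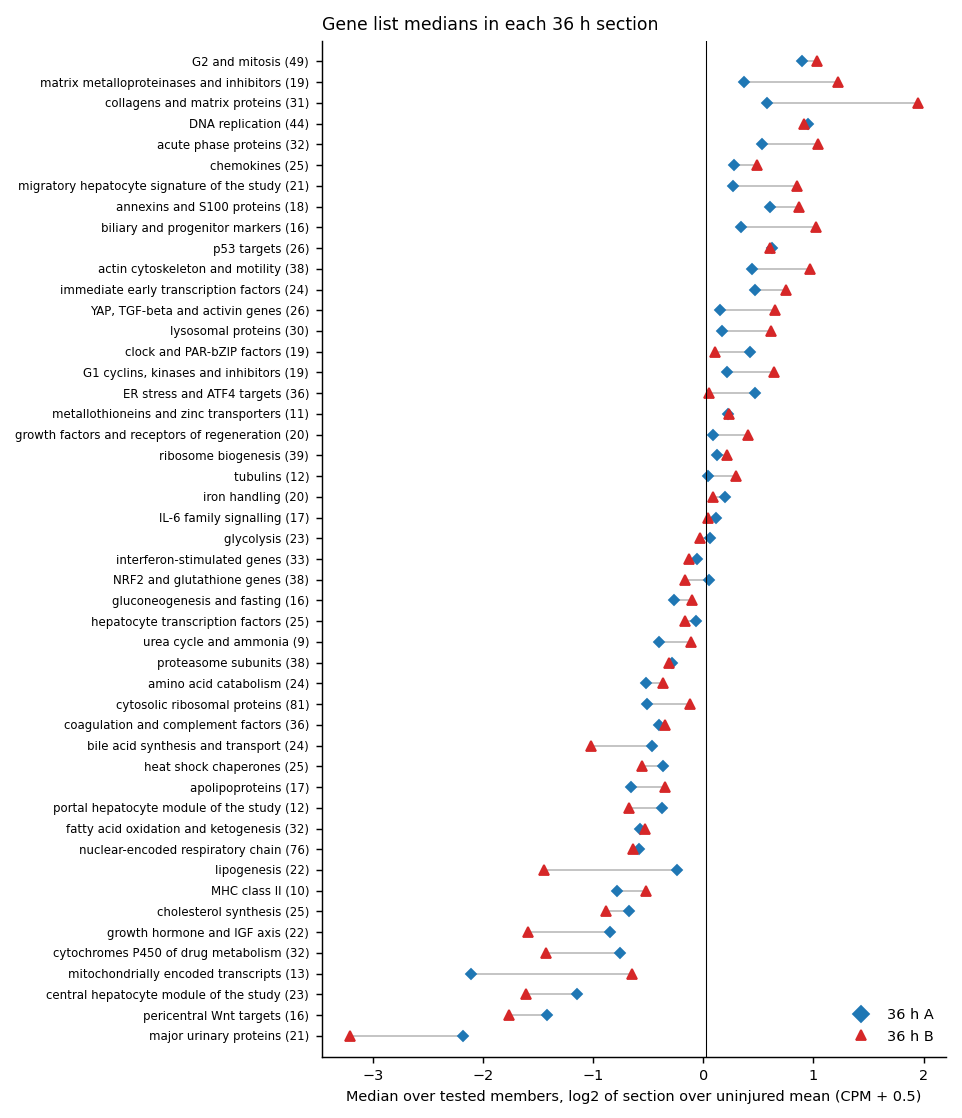
Median log2 ratio to the uninjured mean for each of the 48 functional lists, in 36 h section A and in 36 h section B, with lists ordered by their fitted median, the number of tested members in brackets and the vertical line at the median of all genes tested. Mitosis, matrix and metalloproteinase lists lie right of the line and the Mup, Wnt target and P450 lists left of it, and lipogenesis shows a wide gap between A and B.

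Genes of the cell cycle rose from low levels. DNA replication genes were higher in 30 of 44 cases (median 1.14; count 26 to 29 with 1 section left out), and 1 was lower. Uhrf1, which copies DNA methylation at the fork, was at 0.33, 0.331 and 0.989 CPM in the uninjured sections and 8.17 and 7.45 CPM at 36 h (log2 ratio 3.90 ± 0.46, adjusted p = 0.000588). The ligase Lig1 was at 1.45, 1.97 and 1.69 CPM in the uninjured sections and 9.01 and 11.6 CPM at 36 h (log2 ratio 2.59 ± 0.20, adjusted p = 7.72e-05). The initiator Ccne1, cyclin E1, went from 0.484, 0.534 and 0.904 CPM to 3.8 and 4.85 CPM (log2 ratio 2.78 ± 0.27, adjusted p = 0.000237). E2f1, a driver of S phase genes, went from 2.18, 2.23 and 3.28 CPM to 6.32 and 7.13 CPM (log2 ratio 1.40 ± 0.21, adjusted p = 0.00139). Genes of G2 and mitosis rose in 35 of 49 cases with none lower (median 1.89; count 23 without uninjured section 2, 22 without uninjured section 3 and 20 without section B). Aurkb, a mitotic kinase, was at 0.286, 0.294 and 0.226 CPM in the uninjured sections and 1.97 and 2.05 CPM at 36 h (log2 ratio 2.88 ± 0.37, adjusted p = 0.000763). The whole mitosis list summed to 71.4, 75 and 73.8 CPM in the uninjured sections and 134 and 143 CPM at 36 h, so the levels stayed small, and A and B were close. Which cells carried these transcripts cannot be read from section sums.

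The D-type cyclins Ccnd1 and Ccnd3 were not called. Ccnd1, which hepatocytes induce on entering the cycle, was at 13.2, 18.9 and 26 CPM in the uninjured sections and 22.9 and 32 CPM at 36 h (adjusted p = 0.366) and Ccnd3 at 32.8, 32.7 and 32.6 CPM in the uninjured sections and 25.5 and 36.8 CPM at 36 h (adjusted p = 0.76). In the list of 19 G1 regulators, 7 rose and none fell, with a count of 4 without section B. Ribosome biogenesis rose in 11 of 39 genes and fell in 1 (count 7 without uninjured sections 2 or 3 and 6 without section B). Polr1a, the large subunit of RNA polymerase I, was at 8.17, 8.06 and 8.64 CPM in the uninjured sections and 16 and 16.3 CPM at 36 h (log2 ratio 0.96 ± 0.13, adjusted p = 0.000815). Gar1, which guides the modification of ribosomal RNA, was at 5.59, 5.85 and 6.69 CPM in the uninjured sections and 11 and 12.1 CPM at 36 h (log2 ratio 0.94 ± 0.12, adjusted p = 0.000689). Cytosolic ribosomal proteins were lower in 26 of 81 cases and higher in 2 (median -0.31, -0.52 in section A and -0.12 in section B), with a count of 12 without uninjured sections 2 or 4, 10 without uninjured section 3, 9 without section A and 44 without section B. The proteasome fell in 15 of 38 subunits with none higher (median -0.28; count 11 to 17 with 1 section left out). Both of the last medians turned positive with plain totals, 0.12 for ribosomal proteins (16 higher and 0 lower) and 0.15 for the proteasome (9 higher and 0 lower).

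Cytoskeletal genes rose, and more in section B. Of 38 genes for actin dynamics, 23 rose and none fell (median 0.68; 0.44 in section A and 0.97 in section B), and all 38 were higher in B than in A. Without section B 15 rose and 1 fell. Capg, an actin-capping protein rich in macrophages, was at 2.4, 2.36 and 2.37 CPM in the uninjured sections and 13.8 and 29.6 CPM at 36 h (log2 ratio 3.19 ± 0.36, adjusted p = 0.000522). Flna, filamin A, was at 15.1, 17.8 and 23.1 CPM in the uninjured sections and 56.5 and 100.2 CPM at 36 h (log2 ratio 2.07 ± 0.25, adjusted p = 0.000573). Tmsb10, an actin monomer-binding peptide, was at 55.3, 58.9 and 72.4 CPM in the uninjured sections and 166 and 299 CPM at 36 h (log2 ratio 1.90 ± 0.23, adjusted p = 0.000588). The 2 groups did not overlap for these genes, as for nearly all called genes. Tmsb4x and Pfn1, both binders of actin monomers, straddled the uninjured range, with 483 and 96 CPM in section A and 1179.7 and 288 CPM in section B, against 578, 621 and 624 CPM and 179, 159 and 156 CPM, and were not called (adjusted p = 0.28 and 0.661). Vim, the intermediate filament of mesenchymal cells and macrophages, was at 14.8, 15.3 and 19.6 CPM in the uninjured sections and 46.3 and 163 CPM at 36 h (log2 ratio 2.66 ± 0.42, adjusted p = 0.00215).

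Annexins and S100 proteins, calcium-binding partners at membranes, rose in 11 of 18 cases and fell in 1 (median 0.92; count 8 to 10 with 1 section left out). S100a6 was at 5.11, 5.96 and 7.37 CPM in the uninjured sections and 71.8 and 307 CPM at 36 h (log2 ratio 4.95 ± 0.64, adjusted p = 0.00103). S100a11 was at 10.4, 12.5 and 13.5 CPM in the uninjured sections and 31 and 122 CPM at 36 h (log2 ratio 2.66 ± 0.48, adjusted p = 0.00397), both about 4-fold higher in B than in A. S100a1, the hepatocyte member, fell from 329, 319 and 311 CPM to 172 and 178 CPM (log2 ratio -0.87 ± 0.10, adjusted p = 0.00043). In the migratory hepatocyte signature that the study derived from human liver, 11 of 21 genes with a mouse match rose and 1 fell (median 0.95; count 4 without uninjured sections 2 or 3, 6 without uninjured section 4 and 2 without section B). Tpm1, a tropomyosin of actin filaments, was at 26.7, 25.6 and 28.7 CPM in the uninjured sections and 61.8 and 91.8 CPM at 36 h (log2 ratio 1.51 ± 0.15, adjusted p = 0.000283). Ndrg1, a stress-responsive gene and the one that fell, was at 69.4, 38.4 and 43.3 CPM in the uninjured sections and 16.3 and 30.1 CPM at 36 h (log2 ratio -1.12 ± 0.37, adjusted p = 0.0448), a call lost without section A (adjusted p = 0.225), without uninjured section 2 (adjusted p = 0.127) and without uninjured section 4 (adjusted p = 0.0597), without 48 h section A, B or C (adjusted p = 0.0576, 0.0625 and 0.0584) and with plain totals (adjusted p = 0.121).

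Of 12 tubulins, 6 rose (count 3 without uninjured sections 2 or 3 and 2 without section B) and 3 fell, so the family divided. Tubb6 was at 4.29, 6.07 and 7.26 CPM in the uninjured sections and 18.8 and 30.2 CPM at 36 h (log2 ratio 2.06 ± 0.25, adjusted p = 0.000622). Tubb2a, another beta-tubulin, was at 253, 238 and 276 CPM in the uninjured sections and 51.6 and 79.4 CPM at 36 h (log2 ratio -1.96 ± 0.22, adjusted p = 0.000435). Tuba4a was at 254, 236 and 288 CPM in the uninjured sections and 146 and 121 CPM at 36 h (log2 ratio -0.95 ± 0.18, adjusted p = 0.00392). In the list of 16 biliary and progenitor genes 7 rose and 1 fell, with a count of 2 without uninjured section 2, 4 without uninjured sections 3 or 4 and 1 without section B. Krt8, a keratin of both hepatocytes and bile ducts, was at 199, 199.7 and 239 CPM in the uninjured sections and 568 and 878 CPM at 36 h (log2 ratio 1.77 ± 0.41, adjusted p = 0.0118; adjusted p = 0.0919 without section B). The duct-specific keratins Krt7 and Krt19 were not called (adjusted p = 0.108 and 0.521), and Epcam was at 1.52, 1.77 and 1.44 CPM in the uninjured sections and 1.07 and 1.71 CPM at 36 h (adjusted p = 0.689).

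Matrix genes rose, again with B above A. Of 31 collagens and matrix proteins, 19 rose and 1 fell (median 1.46; 0.58 in section A and 1.95 in section B), with a count of 8 without section B for the rises. Tnc, tenascin C, a protein of provisional matrix, was at 0.484, 0.35 and 0.65 CPM in the uninjured sections and 8.95 and 22 CPM at 36 h (log2 ratio 5.0 ± 0.40, adjusted p = 0.000109). Col5a2, which nucleates collagen fibrils, was at 2.16, 2.01 and 2.94 CPM in the uninjured sections and 6.92 and 23.2 CPM at 36 h (log2 ratio 2.68 ± 0.49, adjusted p = 0.00392). Thbs1, thrombospondin, was at 0.242, 0.828 and 0.819 CPM in the uninjured sections and 2.49 and 5.48 CPM at 36 h (log2 ratio 2.66 ± 0.50, adjusted p = 0.00435). Fn1, the fibronectin gene, was at 933, 985 and 999 CPM in the uninjured sections and 878 and 1009.6 CPM at 36 h (adjusted p = 0.856). Metalloproteinases and their inhibitors rose in 10 of 19 cases with none lower, with a count of 8 to 14 with 1 section left out. Plat, an activator of plasminogen, was at 0.198, 0.202 and 0.537 CPM in the uninjured sections and 1.59 and 8.5 CPM at 36 h (log2 ratio 4.08 ± 0.72, adjusted p = 0.00344). The urokinase receptor Plaur was at 0.396, 0.442 and 0.593 CPM in the uninjured sections and 3.62 and 10.9 CPM at 36 h (log2 ratio 3.94 ± 0.53, adjusted p = 0.00109).

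Growth factor and TGF-beta pathways changed in a minority of members. Of 20 growth factors and receptors, 4 rose and none fell (count 3 to 5 with 1 section left out). Pdgfb, a mitogen of stellate cells, was at 1.12, 1.27 and 1.55 CPM in the uninjured sections and 2.58 and 2.8 CPM at 36 h (log2 ratio 1.04 ± 0.19, adjusted p = 0.00352). The receptor Egfr varied across uninjured sections (304, 178 and 464 CPM), read 179.5 and 109.8 CPM at 36 h and was not called (adjusted p = 0.16). Of 26 genes of the YAP, TGF-beta and activin pathways, 6 rose and none fell (count 12 without section A and 3 without section B). Tead1, the DNA-binding partner of YAP, was at 4.31, 5.28 and 5.56 CPM in the uninjured sections and 8.2 and 10.8 CPM at 36 h (log2 ratio 0.91 ± 0.15, adjusted p = 0.0025). Ltbp2, a matrix protein related to the TGF-beta binders, was at 0.616, 0.276 and 0.254 CPM in the uninjured sections and 1.94 and 5.05 CPM at 36 h (log2 ratio 3.18 ± 0.57, adjusted p = 0.00369).

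Chemokines that recruit monocytes and neutrophils rose. Of 25, 9 rose and 2 fell (5 without section B for the rises). Ccl7 was at 0.484, 0.423 and 0.819 CPM in the uninjured sections and 18.9 and 10.8 CPM at 36 h (log2 ratio 4.73 ± 0.43, adjusted p = 0.000236). Ccl2 was at 2.66, 1.79 and 3.11 CPM in the uninjured sections and 18 and 30.3 CPM at 36 h (log2 ratio 3.27 ± 0.43, adjusted p = 0.000973), both ligands of the monocyte receptor Ccr2. Cxcl1, a neutrophil attractant, was at 1.28, 1.29 and 1.27 CPM in the uninjured sections and 19.8 and 15.2 CPM at 36 h (log2 ratio 3.77 ± 0.67, adjusted p = 0.00373). Cxcl13, which attracts B cells, fell from 3.48, 4.07 and 3.81 CPM to 0.811 and 1.51 CPM (log2 ratio -1.70 ± 0.30, adjusted p = 0.00278). Of 33 interferon-stimulated genes only Oas1a was called, at 1.34, 2.12 and 2.26 CPM in the uninjured sections and 5.42 and 6.28 CPM at 36 h (log2 ratio 1.62 ± 0.30, adjusted p = 0.00361), and the list median was -0.01 (0.42 with plain totals). MHC class II fell in 4 of 10 genes with none higher. H2-Aa, a chain that presents peptides, was at 62.2, 63 and 76.3 CPM in the uninjured sections and 17.5 and 31.1 CPM at 36 h (log2 ratio -1.47 ± 0.33, adjusted p = 0.00947), and without section A 1 gene of the list was called. Lysosomal genes rose in 12 of 30 cases and fell in 3 (6 without uninjured sections 2 or 3, 7 without uninjured section 4 and 4 without section B for the rises, 1 without uninjured sections 2, 3 or 4 or section B for the falls). Cd63, a membrane protein of lysosomes and their vesicles, was at 11.2, 12.6 and 12.9 CPM in the uninjured sections and 75.6 and 123 CPM at 36 h (log2 ratio 3.02 ± 0.32, adjusted p = 0.000418). Lamp2, a lysosomal membrane protein abundant in liver, was at 529, 523 and 507 CPM in the uninjured sections and 239.9 and 316 CPM at 36 h (log2 ratio -0.90 ± 0.13, adjusted p = 0.00141).

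Markers of 17 cell types were read beside these changes, since any of the other cell types in a section could carry them. Their part in the gene lists above was not tested. The 8 hepatocyte markers summed to 116994, 112677 and 119258 CPM in the uninjured sections and 85407 and 103120.0 CPM at 36 h, and 3 of them fell (with plain totals 2 rose and 1 fell). Apob, the structural protein of secreted lipoproteins, was at 1172, 1365 and 1471 CPM in the uninjured sections and 919 and 761 CPM at 36 h (log2 ratio -0.67 ± 0.19, adjusted p = 0.0221), a call lost without section B (adjusted p = 0.12) and without uninjured section 3 (adjusted p = 0.0556) or 4 (adjusted p = 0.0612), and with plain totals (adjusted p = 0.311). Albumin was at 68813, 64888 and 66024 CPM in the uninjured sections and 49889.6 and 60550.5 CPM at 36 h and was not called (adjusted p = 0.234).

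Markers of recruited myeloid cells rose. Of the 6 monocyte markers 3 rose (count 5 without section A), among them the receptor Ccr2, at 0.836, 0.644 and 1.13 CPM in the uninjured sections and 5.27 and 9.65 CPM at 36 h (log2 ratio 3.12 ± 0.37, adjusted p = 0.000549), whereas Ly6c2 was at 1.41, 1.4 and 2.8 CPM in the uninjured sections and 1.88 and 4.54 CPM at 36 h (adjusted p = 0.173). Of 9 markers of lipid-associated macrophages, 7 rose and 1 fell (count 4 without uninjured section 2 or section B). Trem2, a lipid receptor of these cells, was at 0.682, 1.34 and 1.07 CPM in the uninjured sections and 14.4 and 33 CPM at 36 h (log2 ratio 4.51 ± 0.44, adjusted p = 0.000297). Lgals3, galectin-3, was at 10.1, 11 and 12.4 CPM in the uninjured sections and 101 and 192 CPM at 36 h (log2 ratio 3.71 ± 0.34, adjusted p = 0.000236). The sum of that list was nonetheless lower, from 852, 960.0 and 1437 CPM to 582 and 658 CPM. Its most abundant member, Fabp5, which hepatocytes also express, was at 724, 809.6 and 1282 CPM in the uninjured sections and 240.2 and 99.6 CPM at 36 h. The Kupffer cell markers split. Marco, a scavenger receptor, rose from 16.4, 13.5 and 18.4 CPM to 127.1 and 217 CPM (log2 ratio 3.42 ± 0.26, adjusted p = 7.55e-05), but Clec4f, the defining marker of resident Kupffer cells, was at 145, 158 and 167 CPM in the uninjured sections and 83.4 and 106 CPM at 36 h (log2 ratio -0.72 ± 0.24, adjusted p = 0.0407), a call that each of the 5 sections decided, with adjusted p from 0.0667 without uninjured section 2 to 0.171 without section A, and that was lost with plain totals (adjusted p = 0.317). Markers shared by all macrophages summed to 889, 932 and 999 CPM in the uninjured sections and 870.1 and 1569 CPM at 36 h, above the uninjured range in section B and below it in section A.

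Neutrophil markers rose in 6 of 7 cases tested (count 3 without uninjured section 2 and 2 without section B) at low levels. Csf3r, the receptor for the neutrophil growth factor, was at 1.19, 1.2 and 1.19 CPM in the uninjured sections and 4.43 and 6.25 CPM at 36 h (log2 ratio 2.16 ± 0.33, adjusted p = 0.00148). S100a8 was at 1.06, 3.96 and 2.09 CPM in the uninjured sections and 8.92 and 32.7 CPM at 36 h (log2 ratio 3.12 ± 0.78, adjusted p = 0.016; adjusted p = 0.203 without section B and 0.0512 without uninjured section 2). Mmp8, neutrophil collagenase, had 3 UMIs in the uninjured sections and 62 at 36 h, a ratio of 40.2 (95% interval from counting, 13.1 to 200). The defining marker Ly6g had 0, 1 and 0 UMIs in the uninjured sections and 0 and 1 at 36 h, and the granule genes Ngp and Camp had at most 1 UMI in either 36 h section. Lymphocyte markers were scarce. T cell markers summed to 6.56, 7.51 and 9.86 CPM in the uninjured sections and 4.64 and 3.57 CPM at 36 h, and 3 of 8 were called lower (count 1 without uninjured section 4 and 0 without section B). None of the 8 B or plasma cell markers was called in the edgeR test, with the sum at 17.1, 20.5 and 15.3 CPM in the uninjured sections and 26.7 and 14.5 CPM at 36 h.

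Sinusoidal endothelium lost transcripts in 5 of 10 markers with none higher (count 3 without section A, where 2 rose), and with plain totals 2 rose and 3 fell. Clec4g, a lectin of these cells, was at 110.1, 116 and 119.7 CPM in the uninjured sections and 52.3 and 44.5 CPM at 36 h (log2 ratio -1.25 ± 0.13, adjusted p = 0.000371). Dnase1l3 was at 82.5, 90.8 and 95.3 CPM in the uninjured sections and 39.5 and 49.995 CPM at 36 h (log2 ratio -1.0 ± 0.15, adjusted p = 0.00153), while the scavenger receptors Stab1 and Stab2 were not called (adjusted p = 0.103 and 0.603). Quiescent stellate cell markers divided, with 5 of 11 lower and 2 higher (3 without uninjured sections 2 or 4 and 2 without section A for the falls), but with plain totals 4 rose and 1 fell. Colec11, a collectin of these cells, fell from 53.8, 55.9 and 64.8 CPM to 20.9 and 27.8 CPM (log2 ratio -1.26 ± 0.19, adjusted p = 0.00153). Myofibroblast markers rose in 7 of 10 cases (count 4 without uninjured sections 2 or 3 and 3 without section B) and summed to 66.7, 76.2 and 89.7 CPM in the uninjured sections and 176 and 498 CPM at 36 h, highest in B. Vein endothelium summed to 30.4, 29.1 and 30.7 CPM in the uninjured sections and 14.3 and 49.9 CPM at 36 h, below the uninjured range in A and above it in B, and cholangiocyte markers to 5.88, 7.69 and 8.53 CPM in the uninjured sections and 9.82 and 18.5 CPM at 36 h. NK cell markers summed to 4.97, 5.58 and 6.98 CPM in the uninjured sections and 3.48 and 4.28 CPM at 36 h and dendritic cell markers to 7.55, 8.5 and 9.01 CPM in the uninjured sections and 11.5 and 10.0 CPM at 36 h. Mesothelial markers stood out only in section B, where they summed to 24.3 CPM, against 2.26 CPM in A and 1.14 to 4.07 CPM in uninjured liver. Msln, which lines the liver capsule, was at 0.406 and 8.67 CPM in A and B (adjusted p = 0.127 against uninjured liver). Section B also held more globin transcripts than A, with Hbb-bs at 134 and 551 CPM, but the highest level of all was in uninjured section 3 (56.6, 820.2 and 42.8 CPM in the uninjured sections).

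**Figure D4:**
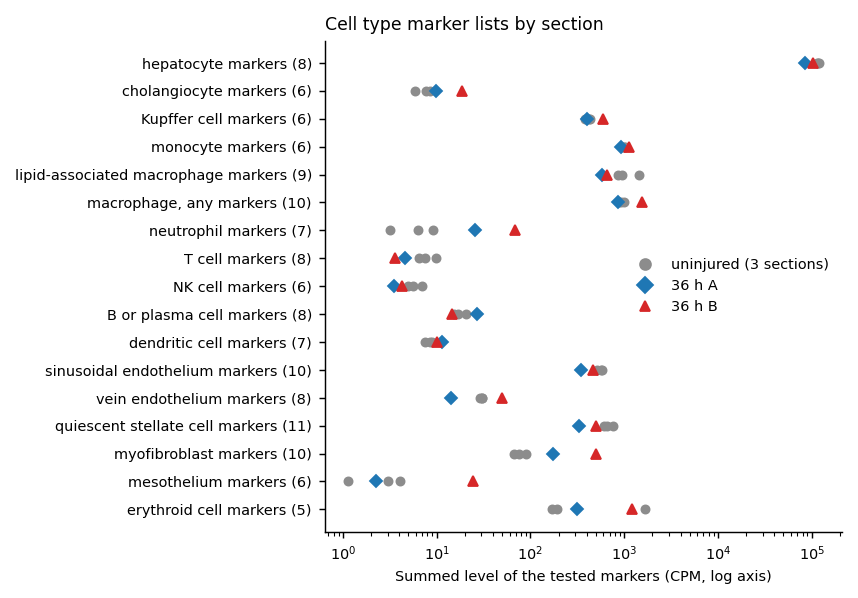
Summed CPM of the tested markers of each of 17 cell types on a log10 axis, 1 point per section. Myofibroblast and neutrophil sums lie above the uninjured points in both 36 h sections, sinusoidal endothelium lies below them, and mesothelium is high in section B alone.

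The lists were then followed across the spots of each section, after each spot had been thinned to 2000 UMIs so that depth was equal, with 1 spot of uninjured section 4 and 1 of section B left out as shallower. A spot's score was the mean over the list of the natural log of 1 plus its UMIs. Moran's I, which is near 0 for a random layout and rises towards 1 when touching spots are alike, was 0.53, 0.54 and 0.47 in the uninjured sections and 0.13 and 0.19 at 36 h for the central module. For the portal module it was 0.44, 0.41 and 0.37 in the uninjured sections and 0.33 and 0.26 at 36 h. The 36 h sections lay below the uninjured ones for both. Across spots, central and portal scores ran opposite to each other in uninjured liver and hardly at all at 36 h (Pearson r -0.70, -0.62 and -0.65 in the uninjured sections and -0.22 and 0.035 at 36 h). These are descriptions over the spots of a section, which share a library, and they carry no test, since 2 sections against 3 cannot reach an exact two-sided permutation p below 0.1. Thinning made the total depth equal but not the level of a list. Fewer UMIs of a list per spot give a noisier score, which lowers Moran's I and draws r towards 0. For the central module, and for r, layout and level therefore cannot be told apart. The mean central score was 1.05, 0.95 and 0.96 in the uninjured sections and 0.70 and 0.50 at 36 h. The mean portal score was 0.97, 0.99 and 1.03 in the uninjured sections and 1.01 and 0.92 at 36 h. For that module section A thus lay within the uninjured range and section B below it, and the part of layout was not tested.

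Moran's I of several other lists was higher at 36 h, where their levels were higher too, so for these a change of layout cannot be told apart from a change of level. Spots with a myofibroblast UMI, for example, made up 10.6%, 13.6% and 13.8% in the uninjured sections and 27.8% and 55.3% at 36 h. Moran's I of the actin score was 0.071, 0.11 and 0.13 in the uninjured sections and 0.25 and 0.36 at 36 h, and that of annexins and S100 proteins 0.0037, 0.012 and -0.016 in the uninjured sections and 0.11 and 0.18 at 36 h. For macrophages it was 0.023, 0.11 and 0.11 in the uninjured sections and 0.15 and 0.26 at 36 h, for myofibroblasts 0.0075, 0.038 and 0.018 in the uninjured sections and 0.076 and 0.16 at 36 h and for the matrix list -0.0008, 0.031 and 0.023 in the uninjured sections and 0.066 and 0.14 at 36 h. Section B had the higher Moran's I of the 2 injured sections for each of these lists, and also the higher mean score. For lipid-associated macrophages Moran's I was 0.0595, 0.0359 and 0.0594 in the uninjured sections and 0.1589 and 0.1396 at 36 h. Their mean score was not higher, at 0.0834, 0.0972 and 0.1193 in the uninjured sections and 0.0897 and 0.0964 at 36 h. The part of layout in that rise was not tested. Actin and macrophage scores went together across spots more at 36 h (r 0.12, 0.16 and 0.16 in the uninjured sections and 0.52 and 0.61 at 36 h). Portal and actin scores were unrelated in uninjured liver and opposed at 36 h (r -0.034, -0.0075 and -0.025 in the uninjured sections and -0.48 and -0.51 at 36 h). Without thinning the ranges of Moran's I for the macrophage score overlapped (0.136 to 0.270 in uninjured liver and 0.256 to 0.416 at 36 h). For mitosis transcripts Moran's I was -0.0088, 0.0031 and 0.009 in the uninjured sections and -0.0046 and 0.025 at 36 h, so the groups overlapped. Both 36 h sections lay above the uninjured ones for them when spots were thinned to 1000 UMIs (0.0110 to 0.0235 against -0.0179 to -0.0076) and without thinning (0.0782 to 0.138 against 0.0095 to 0.0256). The share of spots with a UMI of that list at equal depth went from 12.03%, 11.97% and 12.16% to 24.57% and 24.39%. Those shares are counts of spots with detected RNA, not of dividing cells. For the lipogenesis score Moran's I was 0.19, 0.16 and 0.23 in the uninjured sections and 0.12 and 0.014 at 36 h, lowest in section B, and the groups overlapped when thinned to 1000 UMIs.

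**Figure D5:**
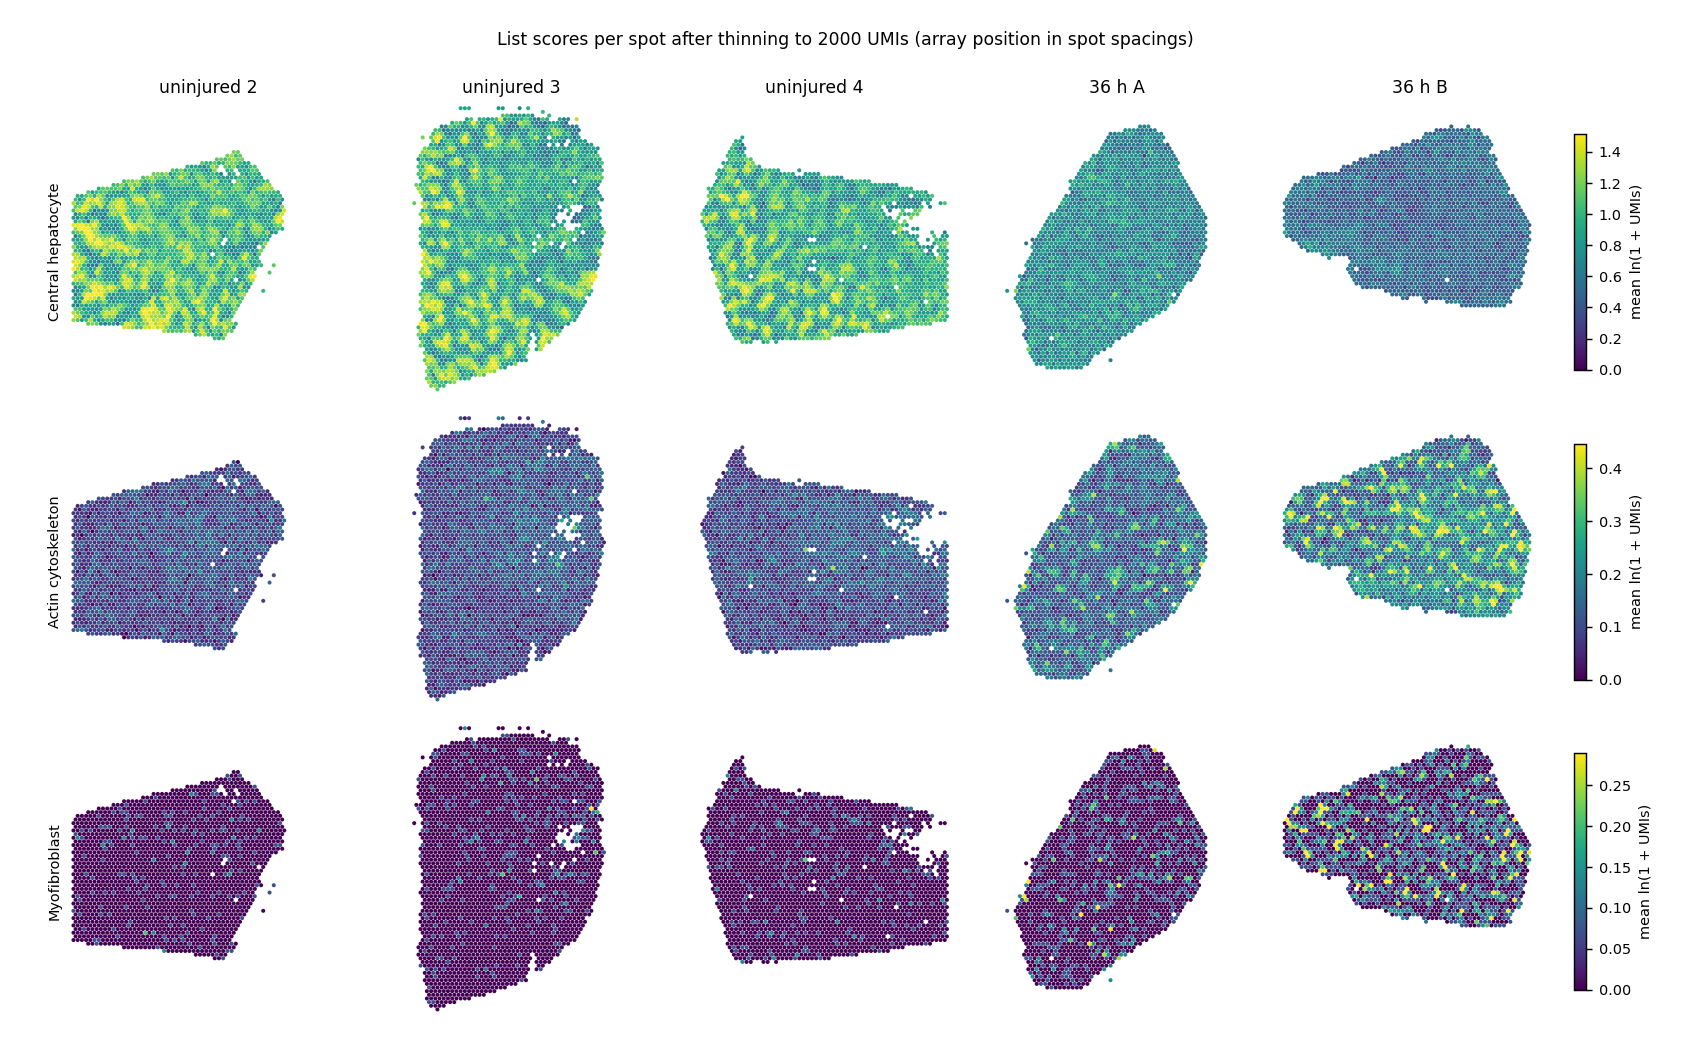
Score of each spot, thinned to 2000 UMIs, for the central hepatocyte (top), actin (middle) and myofibroblast (bottom) lists, 1 column per section, with positions in spot spacings and the same colour scale along a row (mean natural log of 1 plus UMIs). Patches of high central score seen in uninjured sections are missing at 36 h, where patches of high actin and myofibroblast score appear, more in section B than in A.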

How the data were processed

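Libraries were 10x Visium 3′ sections. The deposited gene counts (UMIs per spot) were made by the authors with Space Ranger 1.0.0 against mm10, and the study's Seurat 4.1.1 filters were reapplied, but its manual removal of isolated spots was not. Counts of passing spots were summed per section and fitted in edgeR 4.0.16 (R 4.3.3, quasi-likelihood, robust, TMM scaling, filterByExpr by time point) over all 11 sections, with Benjamini-Hochberg adjustment over 14821 genes and calls at an adjusted p under 0.05. SE was |log2 fold change| divided by the root of F. DESeq2 1.42.0 was an alternative. CPM used TMM-scaled totals, and section ratios a pseudocount of 0.5 CPM. Fits were tested on simulated data.

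Named genes were the 12 largest called rises and 12 largest falls with both 36 h sections on 1 side, then members of the functional and cell type lists, with preference for calls that held in all 17 alternative settings. Members and lists were chosen with earlier results of these data known. Section totals were 31292663 to 67045372 UMIs, and counting intervals cover counting error only. Spot scores used seeded thinning to 2000 UMIs and the neighbours on the Visium grid (Python 3.11.15). Promoter sequence is RefSeq GRCm38.p6.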

Additional observations from a re-analysis of the deposited data

Results flagged for a closer look

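The clock repressor Ciart differed between time points under the same reference. Its log2 fold change from uninjured liver was higher at 36 h than at 24 h by 4.35 (edgeR's quasi-likelihood test, adjusted p = 0.0123) and higher at 36 h than at 48 h by 4.32 (adjusted p = 0.0159), with 4.49 CPM in 36 h section A and 18.0 CPM in section B. Both 36 h sections showed the direction. The part of the hour of collection was not tested.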

How the results depend on the processing

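Of 8501 log2 fold changes of named genes under 17 alternatives, 7524 kept their sign and their side of the threshold, 564 kept their sign but were no longer called and 187 became called. The sign changed for 226 values, of which 211 were called neither in the reported fit nor in the alternative and 15 were called in either. With plain totals in place of TMM, 7506 genes were called, 7404 of them with both 36 h sections on 1 side of the uninjured range, and among the 15 the log2 fold change turned positive for Cyp2d26 (0.35), Igfbp4 (0.36), Il11ra1 (0.013), Mtf1 (0.38), Pgk1 (0.069), Ndufa3 (0.39), Gna13 (0.35), Col18a1 (0.024), Fn1 (0.39), Ccl9 (0.43), Gaa (0.12), Ctsl (0.43) and Lamp1 (0.40). Without 36 h section B it turned negative for Pfn1 (-0.78, against 0.80 without section A) and Thbd (-0.088, against 2.48). Leaving out 1 section gave 2643 to 4880 calls, both ends from fits with a single 36 h section, where only that section could lie on 1 side of the uninjured range. Fewer samples stood behind each of these fits, and where 1 section of 36 h remained it was assumed to vary like the other groups. DESeq2's Wald test called 4958 genes and the fit without a filter 3922. Of the 65 list medians, 16 changed sign in at least 1 setting. Of the 4306 genes called on 1 side, 2160 were still called with the same sign without section B and 2907 with plain totals. For 10 of 14 spatial measures the order of the groups was the same under every thinning, and the exceptions were Moran's I of the acute phase, lipogenesis, mitosis and macrophage scores. No paired analysis was possible because no label links a 36 h section to an uninjured one. Depth limits genes such as Slc7a11 and Fosl1, with 1 UMI over the uninjured sections.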
